A study of Mus musculus with 7 samples.

Results

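Myelinating oligodendrocyte genes were followed across 7 libraries of mouse prefrontal cortex. The set comprised 32 genes of 43626 in the deposited table, chosen by name as genes of the myelin sheath and of the cells that make it, and all 32 had reads in every library. The mice were male C57BL/6J of 8 weeks. The libraries were 4 of genotype hDISC1AA/+ and 3 of wild type (WT). The labels name no other allele or agent and do not describe how the allele was made. Since they tie no library to a mouse of its own, p-values cover the spread among these 7 libraries, part of which may be technical. The study concerns phosphorylation of DISC1, a scaffold protein of neurons, and the comparison asks whether these transcripts differ between the genotypes in the adult cortex.

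Oligodendrocytes wrap axons of the central nervous system in myelin, a compacted stack of membrane rich in cholesterol and galactolipids. Myelin basic protein holds the cytoplasmic faces of the stack together, and other proteins seal its edges, bind it to the axon or help to assemble it. In cortex the sheaths lie mainly in the deep layers and in the white matter below. In bulk tissue, fewer cells of a type and less RNA per cell cannot be told apart.

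A normalized count is here the deposited value, a gene's reads after scaling of the library by the authors' size factor. WT replicate 1 had 63845254 reads in genes, and the other libraries had 33512557 to 36005116. Of the 4 hDISC1AA/+ columns, 3 carry a title from the labels (replicates 1, 3 and 4). The fourth has the hDISC1AA/+ ending with a number absent from the titles and is named the unnumbered library. WT replicate 1 stood apart from the other 6 libraries in glial and vascular genes, and results are given with and without it. In hDISC1AA/+ replicate 1, mitochondrial genes held 1.94% of the reads, against 5.14% to 6.94% in the other 6 libraries.

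Promoters of the set are shown first, as a description of sequence. Most members were high together in WT replicate 1, and the part of promoter sequence in this was not tested. Windows of 250 bases before the start of transcription were taken from RefSeq (build GRCm38.p6) and matched 25 of the 32 members with 39 windows, several genes having more than 1 start. The 5 windows printed belong to the 4 members with the largest log2 deviation of WT replicate 1 from the mean of the other 6 libraries, among those with a single window, and to Apod, the lowest there. They were chosen after the values were seen. Capitals mark matches on either strand to the SOX core ACAAAG and its variant ACAATG (bound by factors such as SOX10), the MYRF core CTGGCAC and its variant CTGGTAC, and the E-box CAGATG with its variants CATATG and then CAGCTG (of the kind bound by OLIG2). A match on the opposite strand reads as its reverse complement, and no 2 matches overlapped in these windows.
Mobp, chr9:120149492-120149741, plus strand: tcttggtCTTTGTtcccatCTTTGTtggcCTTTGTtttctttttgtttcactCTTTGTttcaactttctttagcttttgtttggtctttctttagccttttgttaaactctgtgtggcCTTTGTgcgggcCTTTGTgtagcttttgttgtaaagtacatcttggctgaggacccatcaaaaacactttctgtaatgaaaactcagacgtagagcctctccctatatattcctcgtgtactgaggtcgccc
Mog, chr17:37023399-37023648, minus strand: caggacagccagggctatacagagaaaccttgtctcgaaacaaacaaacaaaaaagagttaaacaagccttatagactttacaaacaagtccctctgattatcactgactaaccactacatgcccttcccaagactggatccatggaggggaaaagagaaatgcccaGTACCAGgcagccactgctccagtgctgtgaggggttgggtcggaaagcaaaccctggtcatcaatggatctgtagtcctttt
Mal, chr2:127656696-127656945, minus strand: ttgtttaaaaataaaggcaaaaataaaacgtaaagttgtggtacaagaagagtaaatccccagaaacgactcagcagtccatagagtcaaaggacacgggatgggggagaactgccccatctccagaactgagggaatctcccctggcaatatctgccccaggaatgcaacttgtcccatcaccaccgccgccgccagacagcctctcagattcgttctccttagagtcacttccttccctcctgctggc
Cnp, chr11:100574689-100574938, plus strand: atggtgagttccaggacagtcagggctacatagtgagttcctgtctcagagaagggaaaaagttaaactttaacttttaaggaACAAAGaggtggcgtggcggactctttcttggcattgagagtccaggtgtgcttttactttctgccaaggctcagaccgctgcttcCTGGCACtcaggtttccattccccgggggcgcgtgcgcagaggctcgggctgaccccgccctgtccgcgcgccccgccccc
Apod, chr16:31314809-31315058, minus strand: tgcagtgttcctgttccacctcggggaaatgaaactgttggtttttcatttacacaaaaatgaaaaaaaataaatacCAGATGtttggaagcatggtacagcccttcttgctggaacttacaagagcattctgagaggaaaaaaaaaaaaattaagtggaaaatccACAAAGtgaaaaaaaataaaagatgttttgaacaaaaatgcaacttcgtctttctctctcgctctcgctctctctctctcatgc
The Mobp window held 6 SOX cores, all as ACAAAG on the strand opposite to the one printed. The Cnp window held both a SOX and a MYRF core, the Mog window 1 MYRF core and the Mal window none of the 3 kinds. The Apod window held 1 SOX core and 1 E-box. SOX cores lay in 38.5% of the members' windows and in 25.2% of all 32851 windows. MYRF cores lay in 12.8% of the members' windows, those of Cnp, Hapln2, Mag and Mog, and in 5.93% of all. E-boxes lay in 38.5% of the members' windows and in 28.1% of all. Windows of a gene with several starts overlap, and a match is a description of letters, not of binding.

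Myelinating oligodendrocyte genes did not differ detectably between hDISC1AA/+ and WT cortex. Of the 31 members tested, 0 passed limma's moderated test at an adjusted p of 0.05 over all 17670 genes (0% of all genes passed). The smallest adjusted p of a member was 0.974. In 26 members the mean log2 level was lower in hDISC1AA/+ and in 5 it was higher, with a median log2 difference of -0.24, beside -0.01 over all genes tested, of which 52.2% were lower. At an unadjusted p under 0.05, 1 member was lower (Ermn) and 0 were higher, with 1.3% of all genes lower and 1.14% higher at that threshold. The confidence interval of the difference lay within 2-fold either way for 18 of the 31 members (58.1%), against 77.4% of all genes. Without WT replicate 1 the split was 15 lower and 16 higher, with a median of 0.01 (-0.01 over all 17528 genes), 0 members passed (0% of all genes), and 0 had an unadjusted p under 0.05, against 1.57% of all genes (0.565% lower). The interval then lay within 2-fold for 29 of the 31 (93.5%, against 80.5% of all genes) and within 1.5-fold for 20 (64.5%, against 56.3%). The excess of lower members was thus absent without that 1 WT library. Members with an unadjusted p under 0.05 were all lower and numbered 5 with edgeR (2.58% of all genes, 1.51% lower), 6 with DESeq2 (2.13%, 1.27% lower), 4 with array weights (10.3%, 5% lower) and 11 without WT replicate 2 (5%, 2.38% lower). By each of these, 0 members passed after adjustment.

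**Figure D1:**
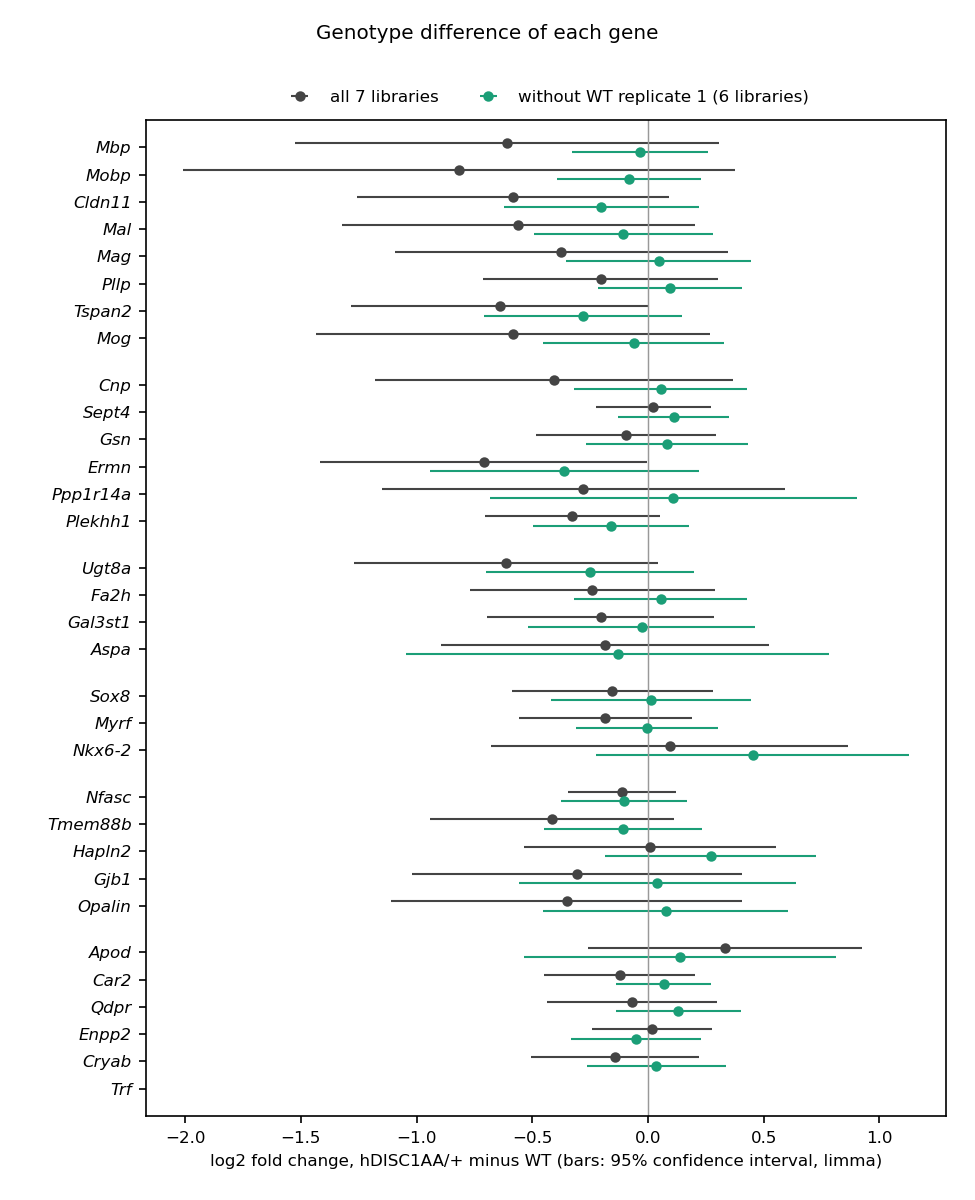
Log2 fold change (hDISC1AA/+ minus WT, horizontal axis) of each tested member, grouped by role, with its 95% confidence interval from limma, in all 7 libraries (grey) and in 6 without WT replicate 1 (green). Mobp stood at -0.82 with that library and -0.08 without it, Mbp at -0.61 and -0.04, and Trf was too low to be tested.

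The structural proteins of compact myelin and its adhesion proteins were the group in which WT replicate 1 stood out most. Mbp encodes myelin basic protein, which compacts the sheath (ENSMUSG00000041607, chromosome 18, 82475146 to 82585637 of GRCm38, plus strand; later gene coordinates are of the same build). It had 22275, 19373, 16811 and 18036 normalized counts in hDISC1AA/+ replicate 1, the unnumbered library and replicates 3 and 4, against 64519.7, 18389 and 20659.6 in WT replicates 1 to 3. WT replicate 1 lay at 3.42 times the median of the other 6, and those 6 ranged within 1.33-fold with the genotypes interleaved. The means were 19124 ± 2347 in hDISC1AA/+ and 34523 ± 26003 in WT (SD, n = 4 and 3). The difference on the log2 scale was -0.61 with a 95% confidence interval of -1.53 to 0.30 (limma, Benjamini-Hochberg adjusted p = 0.974). It was -0.04 (-0.33 to 0.26) without WT replicate 1.

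Mobp encodes a small basic protein of the cytoplasmic side of compact myelin (chromosome 9, 120149707 to 120181484). It had 4557, 4909, 4078 and 4803 normalized counts in the hDISC1AA/+ libraries, in the same order, and 22302, 4218 and 5576 in WT. WT replicate 1 stood at 4.77 times the median of the other libraries, the largest such ratio of the tested members. Means were 4587 ± 369.8 in hDISC1AA/+ and 10699 ± 10072 in WT (SD, n = 4 and 3). The difference was -0.82 (-2.01 to 0.38) on the log2 scale with all libraries and -0.08 (-0.40 to 0.23) without WT replicate 1.

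Tspan2, a tetraspanin of the oligodendrocyte membrane (chromosome 3, 102734529 to 102801513), was the member whose groups did not overlap. It had 958, 1431, 1334 and 1558 normalized counts in hDISC1AA/+, against 3343, 1569 and 1588 in WT. The highest hDISC1AA/+ library thus lay just under the lowest WT library, and hDISC1AA/+ replicate 1 lay far below the rest. The groups did not overlap in 1 of the 31 members, lower in hDISC1AA/+, and in 5.04% of all genes (2.84% lower, 2.2% higher). Without WT replicate 1 it was again Tspan2 alone, with 12.1% of all genes (5.71% lower). Tspan2 averaged 1320.4 ± 258 in hDISC1AA/+ and 2167 ± 1019 in WT (SD, n = 4 and 3), a log2 fold change of -0.64 with interval -1.29 to 0.00 (limma, adjusted p = 0.974). Without WT replicate 1 it was -0.28 (-0.71 to 0.15), and -0.13 when hDISC1AA/+ replicate 1 was left out as well.

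The other members of this group had the same shape. Mog, the glycoprotein of the outermost lamella, stood in WT replicate 1 at 3.23 times the median of the others. Mal, a proteolipid of membrane sorting, stood at 2.87 times it, Cldn11, the claudin of myelin's tight junctions, 2.54 times and Mag, the adhesion protein facing the axon, 2.44 times. Pllp (plasmolipin), a relative of Mal, stood at 1.76 times it. Of its exon bases, 54.2% are also exons of other annotated genes, and the antisense gene Gm45767 shares the most. All 8 members were lower in mean in hDISC1AA/+ (median log2 difference -0.58), and none passed. Without WT replicate 1, 6 were lower and 2 higher (median -0.07, range -0.28 to 0.09).

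**Figure D2:**
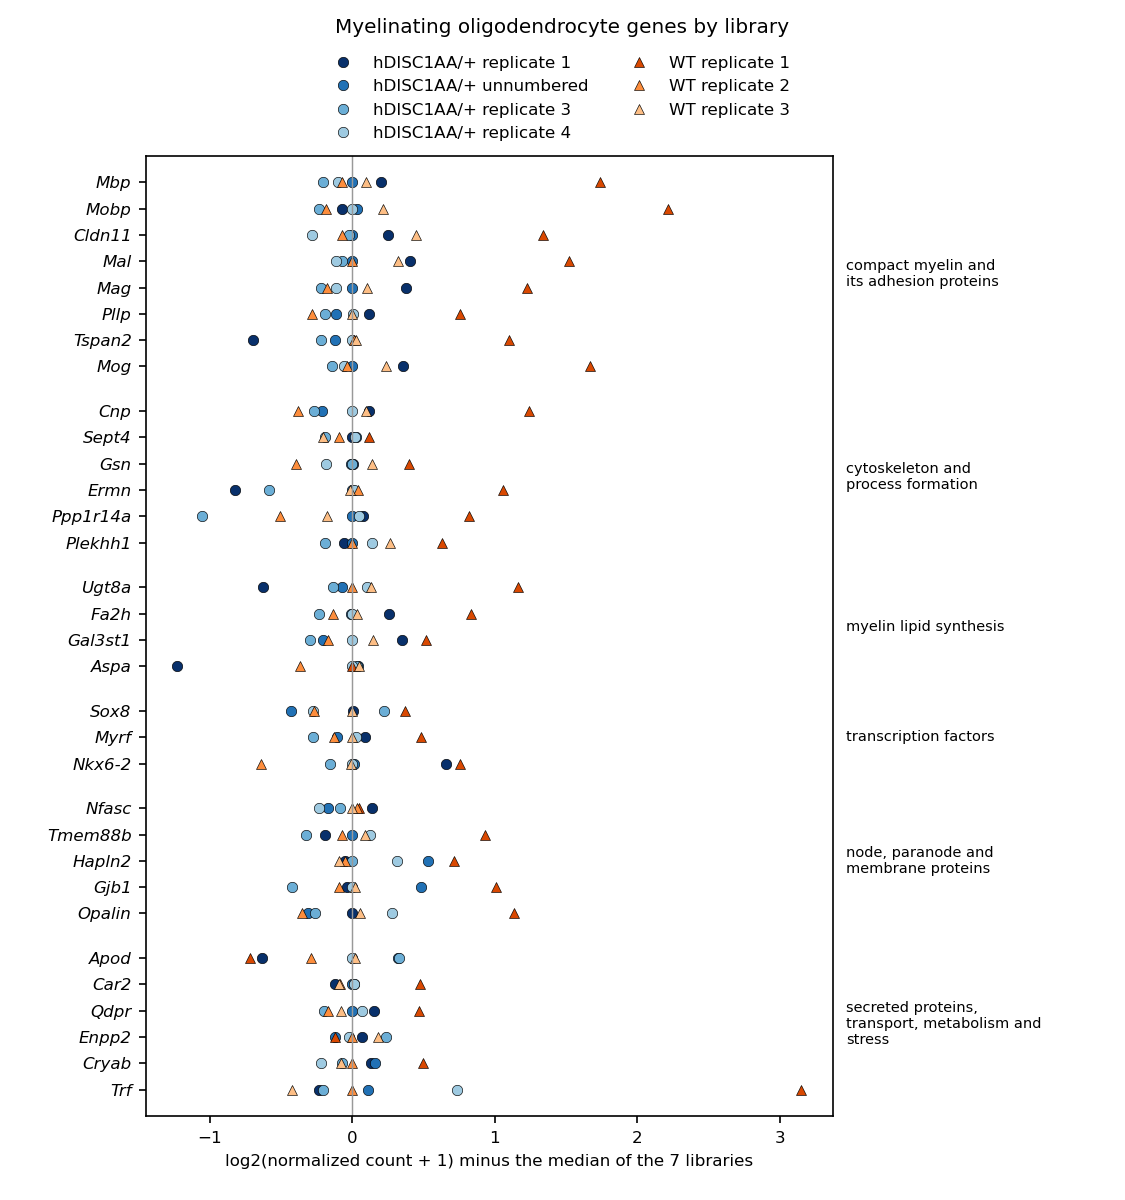
Each row is a member, grouped by role and ordered by level per kilobase within a group, and each point is a library (circles hDISC1AA/+, triangles WT), as log2(normalized count + 1) minus the median of the 7 libraries on the horizontal axis. WT replicate 1 lies farthest to the right for 28 of the 32 members, and Tspan2 is the member whose other WT libraries also lie above every hDISC1AA/+ library.

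Proteins of the cytoskeleton and of process formation were divided. Cnp encodes the phosphodiesterase that keeps cytoplasmic channels open in myelin (chromosome 11, 100574904 to 100591729). It had 3812, 3036, 2917 and 3512 normalized counts in hDISC1AA/+ and 8309.6, 2694 and 3749.9 in WT. Only WT replicate 1 stood apart. Means were 3319 ± 417 in hDISC1AA/+ and 4918 ± 2984 in WT (SD, n = 4 and 3), and the log2 fold change was -0.41 (-1.18 to 0.37), or 0.05 (-0.32 to 0.43) without it. Ermn encodes ermin, an actin-binding protein of late oligodendrocytes (chromosome 2, 58045113 to 58052864). It had 301, 536, 356 and 540.1 normalized counts in hDISC1AA/+ and 1117, 550.0 and 529.6 in WT. The hDISC1AA/+ replicates 1 and 3 were low, the unnumbered library and replicate 4 lay at the level of WT replicates 2 and 3, and the groups overlapped (means 433 ± 123 in hDISC1AA/+ and 732 ± 333 in WT, SD, n = 4 and 3). Its log2 fold change of -0.71 had the smallest unadjusted p of the set (0.0488) and an adjusted p of 0.974 by limma. It was -0.36 (-0.94 to 0.22) without WT replicate 1.

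Sept4, a septin that scaffolds the membrane, showed almost none of this. It had 2770.2, 2818, 2419.8 and 2806 normalized counts in hDISC1AA/+ and 3007, 2599 and 2399 in WT. The libraries spanned 1.25-fold, the narrowest range of the 32 members, and the log2 fold change was 0.02 (-0.23 to 0.27), or 0.11 without WT replicate 1. Gsn (gelsolin, which severs actin filaments) stood in WT replicate 1 at 1.32 times the median of the others, Plekhh1, a little-studied PH-domain protein, 1.55 times, and Ppp1r14a, an inhibitor of myosin phosphatase, 1.88 times. Of the 6 genes, 5 were lower in mean in hDISC1AA/+ with all libraries and 2 without WT replicate 1.

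Enzymes of myelin lipid synthesis included the galactolipid pathway. Ugt8a makes galactosylceramide, the main glycolipid of myelin (chromosome 3, 125865271 to 125938619). It had 388, 569.9, 546 and 645 normalized counts in hDISC1AA/+ and 1341, 600.2 and 658 in WT. WT replicate 1 was the highest and hDISC1AA/+ replicate 1 the lowest, with the other 5 libraries close together. The log2 fold change was -0.61 (-1.27 to 0.04), and -0.25 (-0.70 to 0.20) without WT replicate 1. Fa2h, which hydroxylates the fatty acids of these lipids, had 381, 317, 271 and 319 normalized counts in hDISC1AA/+ and 569, 290.3 and 326 in WT. For this gene hDISC1AA/+ replicate 1 was the second highest library, and the log2 fold change was -0.24 (-0.77 to 0.29), or 0.05 without WT replicate 1. Gal3st1, which adds sulfate to make sulfatide, had a log2 fold change of -0.20, or -0.03 without WT replicate 1. Aspa, which frees acetate from N-acetylaspartate for lipid synthesis, had -0.19, or -0.13 without WT replicate 1, where it stood at 0.992 times the median of the others.

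Transcription factors of the lineage stood closer to the other libraries in WT replicate 1 than the genes of compact myelin and its adhesion proteins did. Myrf, the membrane-anchored factor that drives myelin genes (chromosome 19, 10208272 to 10240748), had 664, 577, 515 and 635 normalized counts in hDISC1AA/+ and 870.3, 571 and 623 in WT. Sox8, a relative of Sox10, had 1609, 1191, 1873 and 1323 in hDISC1AA/+ and 2074, 1332 and 1604 in WT. The groups overlapped widely for both, with log2 fold changes of -0.19 (-0.56 to 0.19) for Myrf and -0.15 (-0.59 to 0.28) for Sox8. They were -0.0039 for Myrf and 0.01 for Sox8 without WT replicate 1. Nkx6-2, a homeobox factor, was at 0.09 (-0.68 to 0.87), or 0.45 without WT replicate 1. Of its exon bases, 12.9% overlap other annotated genes, the most with Inpp5a on the opposite strand (mean 1736 normalized counts). Reads of Nkx6-2 and Inpp5a may therefore not be separable. WT replicate 1 stood at 1.41 to 1.70 times the median of the others for these 3 factors (median 1.45). For the 8 genes of compact myelin and its adhesion proteins it stood at 1.76 to 4.77 times (median 2.71). The factors were not alone in this. Medians were 1.43 for the secreted, transport, metabolic and stress genes and 1.65 for lipid synthesis. They were 1.72 for the cytoskeleton group and 1.95 for the node, paranode and membrane group. These differences between role groups are given without a test.

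Proteins of the node, paranode and outer membrane numbered 5, of which 4 were lower in mean in hDISC1AA/+ (median log2 difference -0.31), and 2 without WT replicate 1 (median 0.04). Nfasc encodes neurofascin, whose glial form anchors the paranodal loops and whose neuronal form lies at nodes (chromosome 1, 132564690 to 132741797). It had 11919.5, 9662, 10212 and 9245 normalized counts in hDISC1AA/+ and 11208, 11093 and 10862 in WT. Of the hDISC1AA/+ libraries 3 lay below all WT libraries and replicate 1 above them (means 10259.8 ± 1175 in hDISC1AA/+ and 11054 ± 176 in WT, SD, n = 4 and 3). Counts of whole genes do not separate the forms. The log2 fold change was -0.11 (-0.35 to 0.12), -0.10 without WT replicate 1 and -0.19 without hDISC1AA/+ replicate 1 (unadjusted p = 0.0344, limma adjusted p = 0.921). Tmem88b, a membrane protein of oligodendrocytes, had 571, 652, 519 and 709.8 normalized counts in hDISC1AA/+ and 1243, 621 and 694 in WT, with WT replicate 1 alone apart (log2 fold change -0.42, -0.94 to 0.11; -0.11 without it). Opalin, a sialylated membrane protein of mature oligodendrocytes, and Gjb1 (connexin 32), the gap junction protein of myelin, stood in WT replicate 1 at 2.41 and 2.05 times the median of the others. Hapln2, a link protein of the nodal matrix, stood at 1.67 times it, with a log2 fold change of 0.01 between the genotypes, or 0.27 without WT replicate 1.

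Among the secreted, transport, metabolic and stress genes were Apod and Enpp2, which lay below the mean of the other libraries in WT replicate 1. Between the genotypes, 3 of the 5 tested genes of this group were lower in mean in hDISC1AA/+ and 2 were higher. Apod, apolipoprotein D, a lipid carrier also made by fibroblasts and mural cells (chromosome 16, 31296192 to 31314808), had 3529.6, 6871, 6899.8 and 5493 normalized counts in hDISC1AA/+ and 3335, 4492 and 5573 in WT. It was the member lowest in WT replicate 1 relative to the other libraries, where endothelial, mural and meningeal markers were low too; their part in the result was not tested. Means were 5698 ± 1588 in hDISC1AA/+ and 4467 ± 1119 in WT (SD, n = 4 and 3), with a log2 fold change of 0.33 (-0.26 to 0.93). It was 0.14 (-0.54 to 0.81; unadjusted p = 0.64) without WT replicate 1. Without hDISC1AA/+ replicate 1, the other low library, it was 0.55 (unadjusted p = 0.0175, limma adjusted p = 0.921), and without both low libraries 0.35 (unadjusted p = 0.0214). Enpp2 encodes autotaxin, a lysophospholipase D that oligodendrocytes and the choroid plexus secrete. It had 9544, 8382, 10769 and 8977 normalized counts in hDISC1AA/+ and 8401, 9131 and 10345 in WT, without excess in WT replicate 1 and with a log2 fold change of 0.02 (-0.24 to 0.28), or -0.05 without that library. Car2, a carbonic anhydrase that makes bicarbonate, had 4073, 4428, 4469 and 4469 in hDISC1AA/+ and 6167, 4169.7 and 4148 in WT. For Car2, WT replicate 1 was the highest library and hDISC1AA/+ replicate 1 the lowest (log2 fold change -0.12, -0.45 to 0.20; 0.07 without WT replicate 1). Qdpr, which recycles tetrahydrobiopterin, and Cryab, a small heat shock protein, had log2 fold changes of -0.07 and -0.14, or 0.13 and 0.04 without WT replicate 1.

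Trf encodes transferrin, the iron carrier that oligodendrocytes make in quantity in adult brain, and its values here were very low. It had 6.35, 8.3, 6.5 and 13.4 normalized counts in hDISC1AA/+ and 75.7, 7.64 and 5.45 in WT, too few for the filter of 10 in at least 3 libraries. Per kilobase of exons it had the lowest mean level of the 32 members (5.31 normalized counts per kilobase). Of its 3320 exon bases, 63.5% are also exons of other annotated genes. The gene that shares the most is Gm20425, on the same strand, which itself had at most 1.06 normalized counts in any library. How reads shared by 2 genes were counted is not given in the sources used here, and their part in the low values was not tested.

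Per kilobase of exons, averaged over all 7 libraries, Mbp had the highest level of the set (3037 normalized counts per kilobase). Apod (2006), Car2 (1883), Qdpr (1674) and Enpp2 (1620.4) followed, ahead of Cnp (1100.4) and Mobp (1052). Without WT replicate 1, Mbp stood at 2274 and Apod at 2125, and Mobp at 685, below Cryab (746), Nfasc (742), Cldn11 (741) and Sept4 (739.7). Neighbours such as Qdpr and Enpp2 differed by less than their spread between libraries. At the low end stood Opalin (51.7), Aspa (51.3) and the factor Nkx6-2 (48.1).

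WT replicate 1 was the highest of the 7 libraries for 28 of the 32 members, against 28.2% of all genes tested. It lay more than 2-fold above the mean of the other 6 for 14 of the 32 members, and so did 2.89% of all genes. The summed normalized counts of the 32 genes were 81428, 77328, 75403 and 74931 in hDISC1AA/+ and 161257, 73490.5 and 82851 in WT. The 6 libraries other than WT replicate 1 thus lay close together, with WT libraries at both ends. The members made up 0.199% to 0.23% of all normalized counts in hDISC1AA/+, and 0.394%, 0.195% and 0.219% in WT replicates 1 to 3. Among the 6 libraries other than WT replicate 1, hDISC1AA/+ replicate 1 was the highest for 13 members and the lowest for 6, and hDISC1AA/+ replicate 3 was the lowest for 12.

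Other genes of the lineage were high with the set in WT replicate 1. Of 40 other mature oligodendrocyte genes, 28 were highest there (median log2 deviation from the other 6 libraries 0.60, against 0.84 for the 31 tested members and 0.02 over all genes). Between the genotypes 35 of these 40 were lower in hDISC1AA/+, 0 passed, and the median was -0.14, or -0.01 without WT replicate 1. Among those with the smallest p were Anln (-0.64), which encodes the septin-binding protein anillin, and Gjc3 (-0.35), a connexin of oligodendrocytes. The lineage factors Olig1, Olig2 and Sox10 were named after their values were seen. Olig1 deviated by 0.69 in WT replicate 1 and lay above the other libraries, while Olig2 and Sox10 deviated by 0.17 and 0.11 and lay within the range of the others. Precursor and premyelinating markers deviated by a median of 0.42 there, but unevenly. Of the 13 measured, 12 deviated above 0 and 2 deviated by more than 1, Bcas1 (1.47) and Enpp6 (1.45). The lowest were Cspg4 (0.09) and Matn4 (-0.10). Between the genotypes 12 of these 13 markers were lower in hDISC1AA/+ (median -0.22, or -0.06 without WT replicate 1), and 0 passed. Ptprz1 (-0.36), a receptor phosphatase of precursors, Gpr17 (-0.30), a receptor of committed precursors, and Enpp6 (-0.71), an enzyme of newly formed oligodendrocytes, had the smallest p among them. Sterol synthesis genes, which supply the cholesterol of the sheath, deviated by 0.26 and none of the 22 lay over 2-fold. Of these, 15 were lower in hDISC1AA/+, 0 passed, and the median was -0.04 (0.00 without WT replicate 1), with the late-step enzymes Sc5d (-0.26) and Msmo1 (-0.29) and the early-step Hmgcs1 (-0.26) first by p.

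Axonal partners at node and paranode were near the other libraries in WT replicate 1 (median deviation 0.06). Of 15 such genes 14 were lower in hDISC1AA/+ (median -0.16) and again 14 without WT replicate 1 (median -0.14), and 0 passed in either. Over all genes, 52.2% were lower with all libraries and 51.7% without WT replicate 1. These genes share the same libraries, and the list was not tested as a set. The potassium channel genes of the juxtaparanode Kcna1 (-0.30, unadjusted p = 0.00988) and Kcna2 (-0.48, unadjusted p = 0.0427) and the paranodal adhesion gene Cntn1 (-0.23) had the smallest p, each with a limma adjusted p of 0.974. Kcna1 had 5283 to 6177 normalized counts in hDISC1AA/+ and 6801 to 7507 in WT, and its log2 difference without WT replicate 1 was -0.26. Groups did not overlap in 5.04% of all genes, and 2.44% of all genes had an unadjusted limma p under 0.05.

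Markers of other cell types also stood apart in WT replicate 1. Astrocyte markers had 11 of 12 members highest there (summed normalized counts 161068 to 197184 in hDISC1AA/+; 272958, 180724 and 211122 in WT replicates 1 to 3). Microglial markers had 8 of 12 highest there (13020.3 to 15324 in hDISC1AA/+ and 13104 to 19718 in WT). All 12 endothelial and mural markers were lowest there (12491 to 15546 in hDISC1AA/+ and 5474, 12435 and 15680.5 in WT replicates 1 to 3), and so were 8 of 10 meningeal fibroblast markers (7538 to 12694 in hDISC1AA/+ and 5844 to 10995 in WT). Choroid plexus markers, whose tissue also makes Trf and Enpp2, summed to 652 to 1248 in hDISC1AA/+ and 246 to 682 in WT. The highest sum was that of hDISC1AA/+ replicate 1, where Ttr alone had 758 normalized counts, and the other hDISC1AA/+ libraries summed to 652 to 732. The lowest sum was that of WT replicate 1, and these markers were divided there. Of the 6 tested, 2 were lowest in that library, Aqp1 (52.6) and Kl (68.0). Ttr (41.1) stood there at 2.17 times the median of the other libraries. Of the markers of Schwann cells, which make peripheral myelin, Pmp2 was at 0 in all libraries. Markers of excitatory and inhibitory neurons deviated by medians of 0.02 and 0.10 in WT replicate 1, and none of these lists had a member that passed between the genotypes. In WT replicate 1, high myelin genes thus came with greater depth and with astrocyte and microglial markers that were mostly high. Endothelial, mural and meningeal markers were mostly low in the same library. The part of depth and of these markers in the result was not tested.

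**Figure D3:**
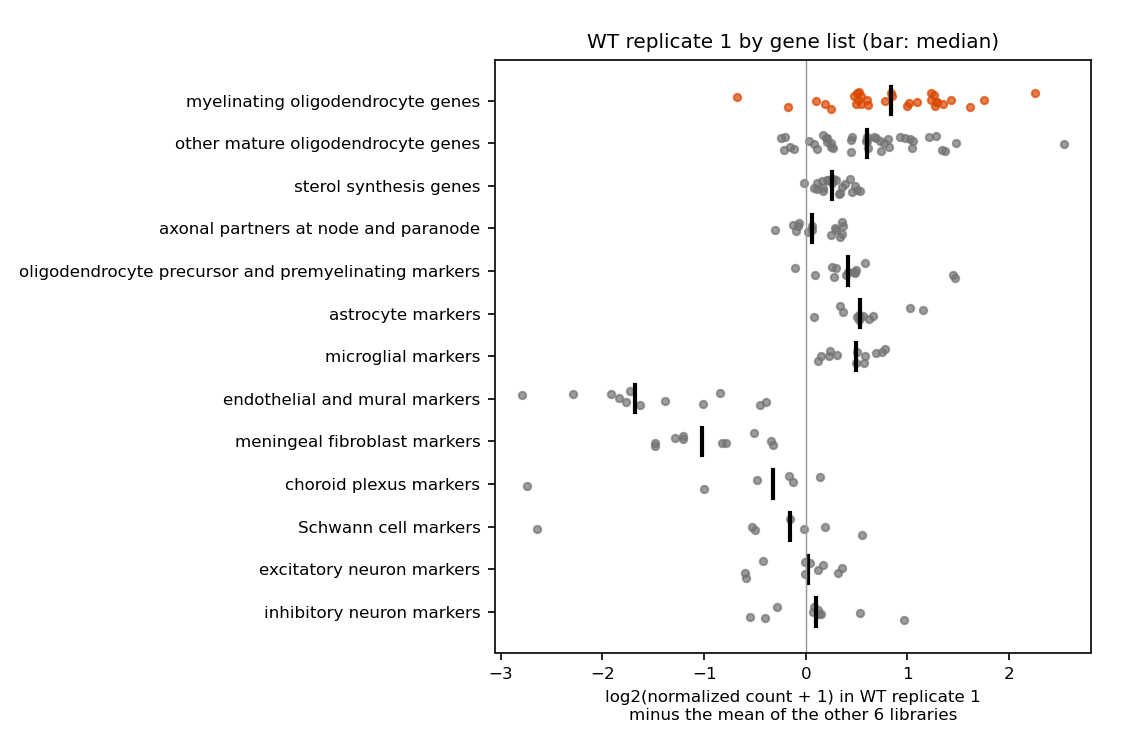
Each point is a tested gene, placed by its log2(normalized count + 1) in WT replicate 1 minus the mean of the other 6 libraries (horizontal axis), in 13 gene lists (rows), and each black bar is a list's median. Myelinating oligodendrocyte genes (orange, median 0.84) lie to the right, and endothelial and mural markers to the left (median -1.68).

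Among the hDISC1AA/+ libraries, replicate 1 divided the set. Against the mean of the other 3 hDISC1AA/+ libraries, Aspa (-1.25 on the log2 scale), Apod (-0.86), Ermn (-0.64), Ugt8a (-0.59) and Tspan2 (-0.59) were the lowest, and Nkx6-2 (0.70), Gal3st1 (0.52), Mag (0.49) and Mal (0.47) the highest. GC content of the longest coding transcript ran from 38.0% to 65.7% over the 32 members, and Ermn, Ugt8a, Aspa and Tspan2 had the lowest. Across the 32 genes the deviation of this library had a Pearson r of 0.68 and a Spearman rho of 0.58 with GC content, while across 17543 tested genes r was 0.51 and rho 0.60. Genes share the library and are not independent replicates, so no p is given. For WT replicate 1 the same r over the members was -0.04. The part of base composition in the low values of hDISC1AA/+ replicate 1 was not tested.

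**Figure D4:**
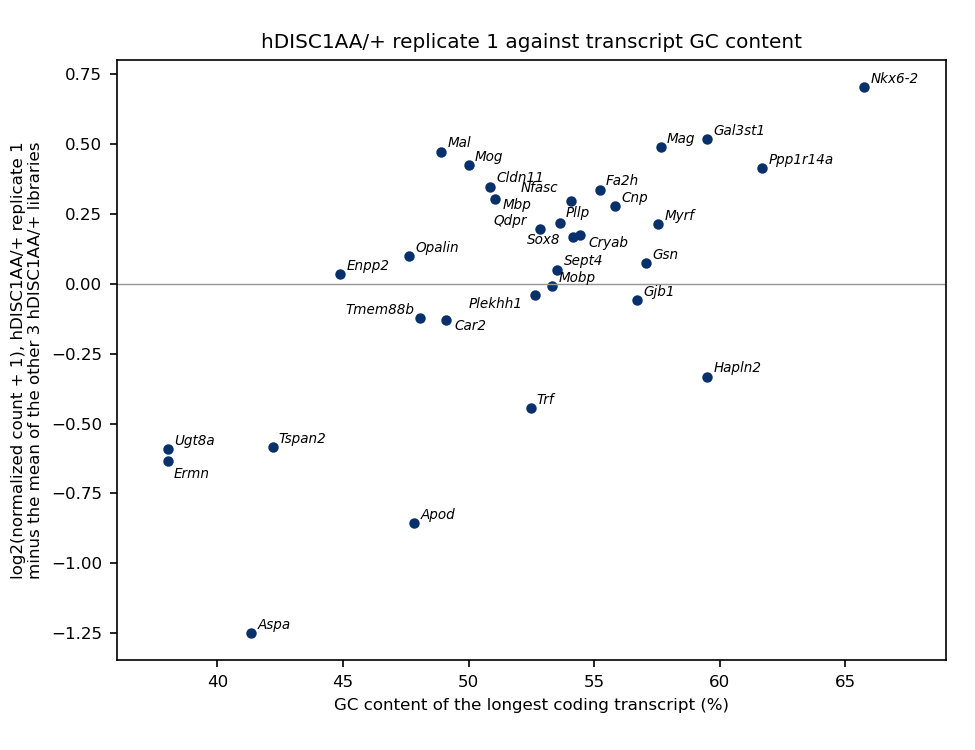
Each point is a member, placed by the GC content of its longest coding transcript (horizontal axis, %) and by its log2(normalized count + 1) in hDISC1AA/+ replicate 1 minus the mean of the other 3 hDISC1AA/+ libraries (vertical axis). The 4 members of lowest GC content lie below 0, with Aspa the lowest (-1.25) and Nkx6-2 the highest (0.70).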

How the data were processed

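RNA sequencing of prefrontal cortex from 4 hDISC1AA/+ and 3 WT samples was analysed. Trizol RNA and a NEBNext Ultra RNA kit were used, per the labels' protocols. Build mm10, HTSeq 0.6.1, HISAT2 2.1.0, Trimmomatic 0.39 and DESeq2 1.26.0 are named in the submitters' processing notes. The sources used here do not give the annotation version, the strand setting or the treatment of reads shared by genes. The authors deposited a normalized signal, the count of each gene over a size factor of its library: all values above 0 (100%) were whole multiples of 1 step per column, within 0.01 reads, so whole reads could be recovered. Left out were 3 genes whose identifier and values were split over lines (0.012% to 0.0169% of values). Symbols and coordinates come from GENCODE M21 (GRCm38), which matched 42459 of 43626 identifiers.

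Genes with at least 10 normalized counts in at least 3 libraries were tested with limma 3.58.1 (trend, robust) on log2(normalized count + 1). Tests were two-sided, p-values were adjusted by Benjamini-Hochberg over all genes, and the threshold was 0.05. Fold changes are hDISC1AA/+ minus WT on that scale and understate changes of low genes. Intervals are 95% confidence intervals. The fit was tested on simulated counts. Alternatives were edgeR 4.0.16 (quasi-likelihood) and DESeq2 1.42.0 on the recovered reads, TMM scaling, pseudocounts of 0.5 and 5, other filters, array weights and omitted libraries. GC content is that of a gene's longest coding transcript in GENCODE M21. Members and lists were chosen with earlier results of these data known. Values in every library are given for the 2 members of each role group with the highest level per kilobase, for those with an unadjusted p under 0.05 or groups that do not overlap, and for the 3 widest and 3 narrowest ranges over libraries. Of the other lists, the first 3 genes by p are named for genes of the lineage and the axon, except for a result that is not reported here. Lhfpl3, a symbol of several identifiers, was left out of the precursor list.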

Additional observations from a re-analysis of the deposited data

Results flagged for a closer look

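In 6 of the 32 members, 1 of the 4 hDISC1AA/+ libraries lay far from the other 3, by Dixon's 95% criterion for the gap to the nearest library over the whole range. For independent groups of normally spread values, chance gives this in about 1 of 20 groups. The members share the same libraries and are not independent, and the share over all genes is not given here. The count is therefore not read as an excess. In hDISC1AA/+ replicate 1, Aspa had 145 normalized counts (339 to 349.8 in the other 3), Nkx6-2 had 130.1 (73.7 to 83.0) and Car2 had 4073 (4428 to 4469). In hDISC1AA/+ replicate 3, Ppp1r14a had 56.3 (118 to 125) and Sept4 had 2419.8 (2770.2 to 2818). In hDISC1AA/+ replicate 4, Gsn had 1427 (1616 to 1634). The groups of 3 WT libraries were not examined this way.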

How the results depend on the processing

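The count of members passing was 0 under every alternative run, as was that over all genes. The median log2 difference of the members was -0.24 and ran from -0.429 (without WT replicate 2) to 0.0137 (without WT replicate 1) with libraries left out, was -0.294 with edgeR, -0.30 with DESeq2, -0.236 with TMM scaling and -0.133 with array weights. The number of the 31 members with an unadjusted p under 0.05 was 1 in the test reported, 2 without hDISC1AA/+ replicate 1 (Nfasc lower, Apod higher, 2.92% of all genes) and 0 without WT replicate 1. Without both of these libraries it was again 2, the same genes (3.34% of all genes). Leaving out WT replicate 2 leaves more weight on WT replicate 1. The log2 difference changed sign with libraries left out in 17 members. With 1 left out, the lowest and highest values of those that changed were Mag -0.655 to 0.0465, Cnp -0.758 to 0.054, Opalin -0.668 to 0.0757, Aspa -0.315 to 0.127, Gjb1 -0.509 to 0.0407, Fa2h -0.429 to 0.0546, Nkx6-2 -0.244 to 0.453, Enpp2 -0.0516 to 0.0986, Ppp1r14a -0.556 to 0.109, Hapln2 -0.135 to 0.271, Gsn -0.317 to 0.0801, Sox8 -0.305 to 0.0137, Car2 -0.219 to 0.0671, Cryab -0.249 to 0.0357, Qdpr -0.191 to 0.132, Sept4 -0.0511 to 0.112, Pllp -0.426 to 0.0944. With both WT replicate 1 and hDISC1AA/+ replicate 1 left out, those that changed stood at Opalin 0.0513, Aspa 0.18, Gjb1 0.055, Enpp2 -0.06, Ppp1r14a 0.00552, Gsn 0.0618, Car2 0.0994, Qdpr 0.0827, Pllp 0.0403. It also changed sign for Hapln2 with edgeR (-0.0228) and DESeq2 (-0.0298), and with array weights for Enpp2 (-0.089), Car2 (0.0732) and Qdpr (0.0267); none of these was past the threshold. Why these values moved was not tested. No paired analysis was possible because the replicate numbers were given here in the order of the records, and no label ties a number to a litter, batch or day. With 3 and 4 libraries, a 2-fold difference lay inside the interval of 13 of 31 members.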
